A study of Mus musculus with 106 samples.

Results

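Gene by gene, RNA bound to tagged ribosomes of the vGluT2 line was set against total RNA of the same tissue in the cerebellum of control mice. The libraries were chosen by their labels, namely genotype Control, cell type vGlut2 and tissue Cerebellum. This gave 5 RiboTag IP and 4 Input libraries, 9 of the 106 in the series. The study profiled several neuron classes of cerebrum and cerebellum in mice with a Huntington disease (HD) allele and in controls. Its RiboTag mice carry a form of the ribosomal protein gene *Rpl22* that gains an HA tag in cells with Cre and in their descendants. An IP library holds RNA pulled down from tissue homogenate with an antibody to HA, and an Input library holds total RNA of the homogenate, both read with a stranded poly(A) kit.

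The control mice were Hdh Q7/Q7 littermates of the HD mice on a 129S4 background, heterozygous for vGluT2-IRES-Cre and for Rpl22-HA, and their cerebella were flash frozen at 9 months of age. Cre in this line is made wherever *Slc17a6*, the gene of vGluT2, has ever been active, so the tag marks all cells with a past of vGluT2 expression and not granule cells alone. For comparison, the cerebellum of Hdh Q7/Q200 littermates with the same drivers gave 6 IP and 4 Input libraries. The cerebellum of Hdh Q7/Q7 mice with Gad2-IRES-Cre, which tags inhibitory neurons, gave 6 IPs and 3 Inputs. From the cerebrum of the control vGluT2 line came 6 IPs and 3 Inputs. Strain, age and the Rpl22-HA allele were shared by all of these groups.

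Granule cells are small excitatory neurons of the cerebellum and the most numerous neurons of the mouse brain. Their axons, the parallel fibers, release glutamate onto Purkinje cells and interneurons, and cerebellins secreted by granule cells hold these synapses together. Mature granule cells are known for the GABA-A receptor subunit encoded by *Gabra6*, and they use vGluT1 (*Slc17a7*) more than the vGluT2 with which their lineage starts.

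On mouse genes, IP replicates 1 to 5 held 39654787, 35927641, 34229855, 36498914 and 40085593 counts, and Input replicates 1 to 4 held 46262978, 44150406, 39546825 and 35858940. Levels are CPM after TMM normalization, so each is a share of its library. A count of 0 in the shallowest library allows a level of up to 0.0918 CPM, taking 3 counts as the limit, and such limits cover counting error only. Values in all 9 libraries are given in the order of the replicate numbers, IPs first. Ratios are log2 of IP over Input from edgeR's quasi-likelihood test, with their standard error (SE) and a Benjamini-Hochberg adjusted p over all genes of the comparison, and genes at an adjusted p of 0.05 or less are called.

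Before any ratio, the labels were checked against the libraries. Without TMM scaling, the Y-linked genes *Ddx3y*, *Uty*, *Kdm5d* and *Eif2s3y* together reached 101 CPM in IP replicate 3 and 97.6 CPM in Input replicate 2, and 0 in the other 7 libraries. Mouse codes in the labels say which libraries of the series come from the same animal. Of the 36 codes with more than 1 library, 33 had these genes at 1 CPM or more in each of their libraries or in none, and 3 were mixed. All 3 mixed codes include a control cerebellar vGluT2 IP. IP replicate 1 held 0 where the cerebral IP of its code held 28.6 CPM. The reverse was seen for IP replicate 3, with 101 CPM beside 0 in the cerebral IP of its code. IP replicate 4 held 0 where Input replicate 2, of the same code, held 97.6 CPM and the cerebral IP of that code 63.7 CPM. Replicates are named as labelled, none was moved, and the reason for the mismatch was not tested.

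IP replicate 5 and Input replicate 4 stood apart from the rest of their groups. Of 14295 protein-coding genes, 335 were at least 2-fold and 94 at least 4-fold higher in IP replicate 5 than in any other IP. The other IPs had 17, 138, 20 and 11 such genes at 2-fold, of which 138 were in replicate 2. In Input replicate 4 there were 252 genes at 2-fold and 83 at 4-fold over the other Inputs, where the other Inputs had at most 35. At 4-fold, 42 genes were shared, which is 44.7% of those of IP replicate 5 and 50.6% of those of Input replicate 4. By their labels these 2 libraries come from different mice, since the code of IP replicate 5 is that of Input replicate 3.

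The genes furthest above the other IPs in IP replicate 5 include regulators of neurons outside the cerebellum. *Shox2*, a homeobox gene of thalamic and midbrain neurons on chromosome 3 (66971727 to 66981771, GRCm38), stood at 0.180, 1.03, 0.0612, 0 and 29.4 CPM in the IPs and at 0.0869, 0.0647, 0 and 12.9 CPM in the Inputs. Of these 9 libraries IP replicate 5 and Input replicate 4 were far above the others, and the groups overlapped. In the other cerebellar groups, without TMM scaling, it was highest in IP replicate 5 of the HD vGluT2 mice (5.62 CPM, with 2.48 CPM in the Input of the same mouse code), in IP replicate 2 of HD mice with the Gad2 driver (2.64 CPM) and in Input replicate 2 of the control Gad2 mice (1.72 CPM). In cerebral vGluT2 IPs it ran from 21.3 to 36.1 CPM (median 28.3, n = 6). Its ratio of 0.93 (SE 1.82, adjusted p = 0.689) turned to −3.28 without IP replicate 5 and was not called. It was 6.83 without Input replicate 4 and called, and could not be tested without both libraries. With the mouse code as a fixed block it was 5.95 and called, but with a random block 1.53 and not called. Codes were used as labelled, which Y-linked genes contradict for IP replicate 4 and Input replicate 2. They put IP replicate 5 with Input replicate 3 and leave Input replicate 4 without a cerebellar IP of its code. *Tcf7l2*, a Wnt pathway transcription factor of the thalamus, stood at 0.334, 0.924, 0.306, 0.870 and 103 CPM in the IPs and 6.26, 5.45, 3.50 and 65.3 CPM in the Inputs. Here too the high values were those of the same 2 libraries, while the other IPs lay below all Inputs. Over all libraries its ratio was 0.07 (SE 1.51, adjusted p = 0.973), and it was −4.97 without IP replicate 5 and −3.01 without both, each of them called, and 2.09 without Input replicate 4, not called. *Nrgn*, a calmodulin-binding protein of forebrain neurons, stood at 1.64, 1.74, 2.11, 0.590 and 208 CPM in the IPs and at 5.15, 4.22, 6.42 and 88.9 CPM in the Inputs. Its highest levels were again in IP replicate 5 and Input replicate 4, still under the 2152 to 3568 CPM of cerebral IPs. The ratio was 0.72 (SE 1.55, adjusted p = 0.716), −4.04 without IP replicate 5 and −1.75 without both, each of them called, and 3.06 without Input replicate 4, not called.

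The other genes chosen by the same gap were *Vip*, *Tfap2d*, *Gda*, *Lhx9*, *C1ql4*, *Six3* and *Cnih3*. In IP replicate 5 they ranged from 1.53 CPM (*Six3*) to 25.0 CPM (*Lhx9*), where the highest other IP had 0 and 1.28 CPM, and in Input replicate 4 from 2.54 CPM (*C1ql4*) to 17.7 CPM (*Lhx9*). *Emx2* and *Fezf2*, which define cortex, were at or under 3 counts in each IP. The forebrain genes together, however, summed to 80.8, 77.5, 85.8, 71.6 and 118 CPM in the IPs and to 324, 324, 387 and 333 CPM in the Inputs, so that of the IPs replicate 5 was highest. *Ttr*, made by the choroid plexus, stood at 104, 242, 171, 129 and 18.3 CPM in the IPs and 1628, 1567, 1930.4 and 199 CPM in the Inputs. It was lowest in the same 2 libraries, and the groups overlapped only through Input replicate 4. A further library was high in another set: the 12 hindbrain Hox genes, all under the count filter, summed to 1.002, 12.2, 0.245, 0.0281 and 0.200 CPM in the IPs and 1.04, 0.560, 0.172 and 0.195 CPM in the Inputs, so IP replicate 2 was highest. Which tissue these RNAs came from was not tested.

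**Figure D1:**
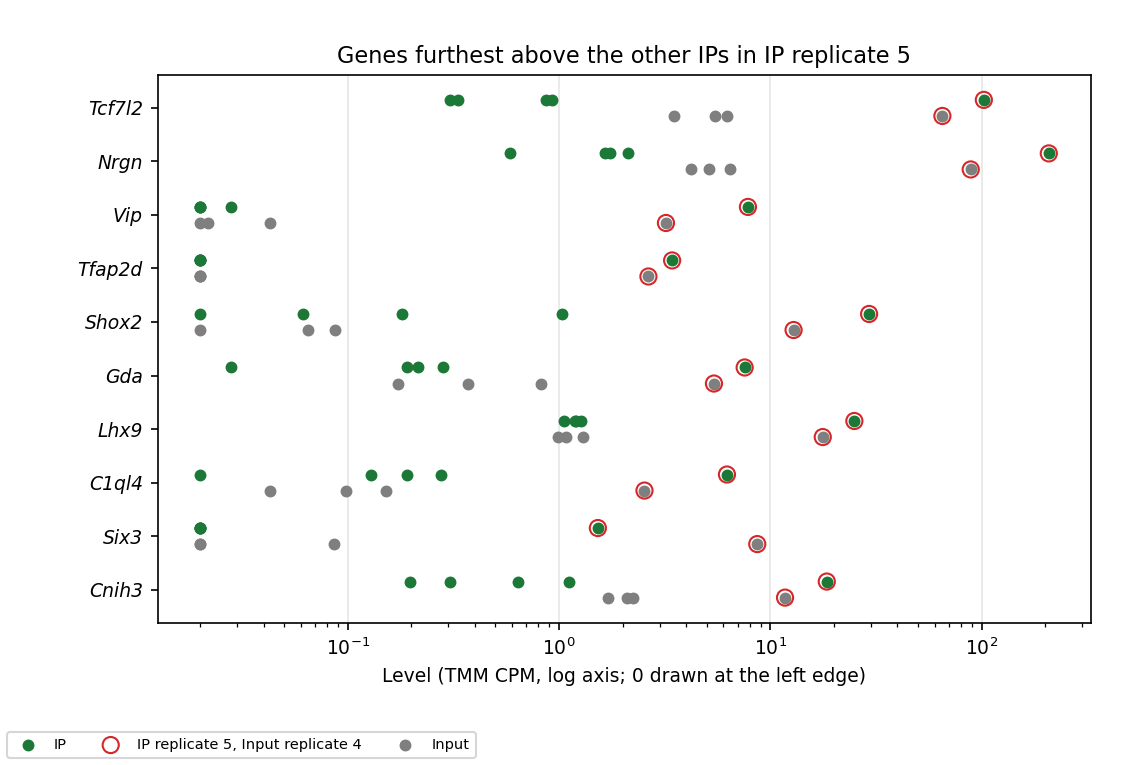
Level in TMM CPM on a log axis of the 10 genes furthest above the other IPs in IP replicate 5, with 1 point for each IP (green) and Input (grey) library and red rings around IP replicate 5 and Input replicate 4. The ringed libraries hold the highest value of their group for each gene, as for *Tcf7l2* with 103 CPM in the IP and 65.3 CPM in the Input.

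Across genes, the comparison asks which RNAs are held by tagged ribosomes in larger or smaller share than in the tissue. Protein-coding genes were tested where their mean count exceeded 10. Of these 14295 genes, 3480 were called higher in the IPs (24.3%) and 4385 lower (30.7%). At least 2-fold changes were few on the higher side, with 303 genes (2.12%) against 3002 lower (21%). For 6393 genes (44.7%) the IP and Input libraries did not overlap, and the median ratio of all genes tested was −0.02. Leaving out each library in turn gave 2962 to 3708 genes higher and 3756 to 4373 lower. Without both IP replicate 5 and Input replicate 4, 3035 were higher and 4026 lower, with 413 and 3030 at least 2-fold. In bulk libraries such as these, RNA held by fewer tagged cells and less ribosome-bound RNA per tagged cell cannot be told apart.

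The labelled cell type was checked on its markers. *Gabra6* (ENSMUSG00000020428.13, chromosome 11, 42306437 to 42321072) stood at 1214, 1394, 1102, 1276 and 993 CPM in the IPs and at 648, 569.8, 443 and 496 CPM in the Inputs. Each IP was above each Input, with IP replicate 5 the lowest IP. The ratio was 1.15 (SE 0.142, adjusted p = 3.63e-05) and 1.06 to 1.30 with any library left out. *Etv1* (ENSMUSG00000004151.17, chromosome 12, 38779380 to 38870484), an ETS transcription factor of maturing granule cells, stood at 898, 953, 831, 895 and 787 CPM in the IPs and at 624, 479, 316 and 496 CPM in the Inputs. The groups did not overlap, and the Inputs spread more widely than the IPs. Its ratio was 0.87 (SE 0.168, adjusted p = 9.56e-04), from 0.71 to 1.07 over the leave-outs.

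Of 20 granule cell genes, 19 were called higher in the IPs, where 24.3% of all genes were, and 10 of them at least 2-fold, where 2.12% were. For 17 of the 20 the groups did not overlap, beside 44.7% of all genes, and their median ratio was 0.99 against −0.02 over all genes tested. With IP replicate 5 left out, and with Input replicate 4 left out as well, 19 were called each time. Summed, the 20 genes took 23792.5, 21289.7, 22161, 22563 and 18227 CPM in the IPs and 11702, 10409, 10981 and 9010 CPM in the Inputs. IP replicate 5 was the lowest IP and Input replicate 4 the lowest Input, and the IP mean was 205% of the Input mean. No member was at 0, and per transcript length *Cbln3* was the most abundant in both preparations, with 918 and 451 CPM per kb. The Inputs, too, were rich in these RNAs.

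Of 24 transcription factors of the granule cell lineage 17 were called higher, beside 24.3% of all genes, and 7 were not called, with a median ratio of 0.77. *Neurod1*, a basic helix-loop-helix factor, had the highest level of them per length, with 343 CPM per kb in the IPs and 142 in the Inputs. It stood at 935, 1058, 1020.5, 978 and 693 CPM in the IPs and at 465, 379.6, 318 and 382 CPM in the Inputs, a ratio of 1.28 (SE 0.151, adjusted p = 2.59e-05). All IPs were above all Inputs, and IP replicate 5 was the lowest of them. *Pax6*, a paired-box factor, stood at 194, 180.0, 186, 161 and 157 CPM in the IPs and at 78.0, 83.1, 77.2 and 61.9 CPM in the Inputs. With no overlap and little spread in either group, its ratio was 1.23 (SE 0.121, adjusted p = 5.82e-06). *Zic1*, a zinc finger factor, stood at 1438, 1345, 1700.1, 1695 and 1258 CPM in the IPs and at 937, 780.5, 593 and 728 CPM in the Inputs. Again no IP was as low as an Input (ratio 0.97, SE 0.149, adjusted p = 1.85e-04).

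The homeobox factors *Tlx3* and *Uncx* had the highest ratios of this list at low levels. *Tlx3* stood at 35.0, 12.9, 20.4, 22.7 and 21.2 CPM in the IPs and at 5.65, 5.95, 10.2 and 4.66 CPM in the Inputs. IP replicate 2 came nearest to the Inputs without reaching them (ratio 1.76, SE 0.291, adjusted p = 3.09e-04). *Uncx* stood at 99.7, 62.4, 50.6, 55.3 and 63.6 CPM in the IPs and at 19.6, 22.3, 35.8 and 13.8 CPM in the Inputs. IP replicate 1 was highest, and the groups did not overlap (ratio 1.54, SE 0.268, adjusted p = 4.68e-04). The exception among the granule cell genes was *Nfia*, a nuclear factor I gene that astrocytes also express, at 111, 137, 134, 129 and 104 CPM in the IPs and 135, 121, 84.6 and 113 CPM in the Inputs. The groups overlapped throughout, the ratio of 0.12 (SE 0.145, adjusted p = 0.520) was not called, and it was −0.00 without Input replicate 3.

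**Figure D2:**
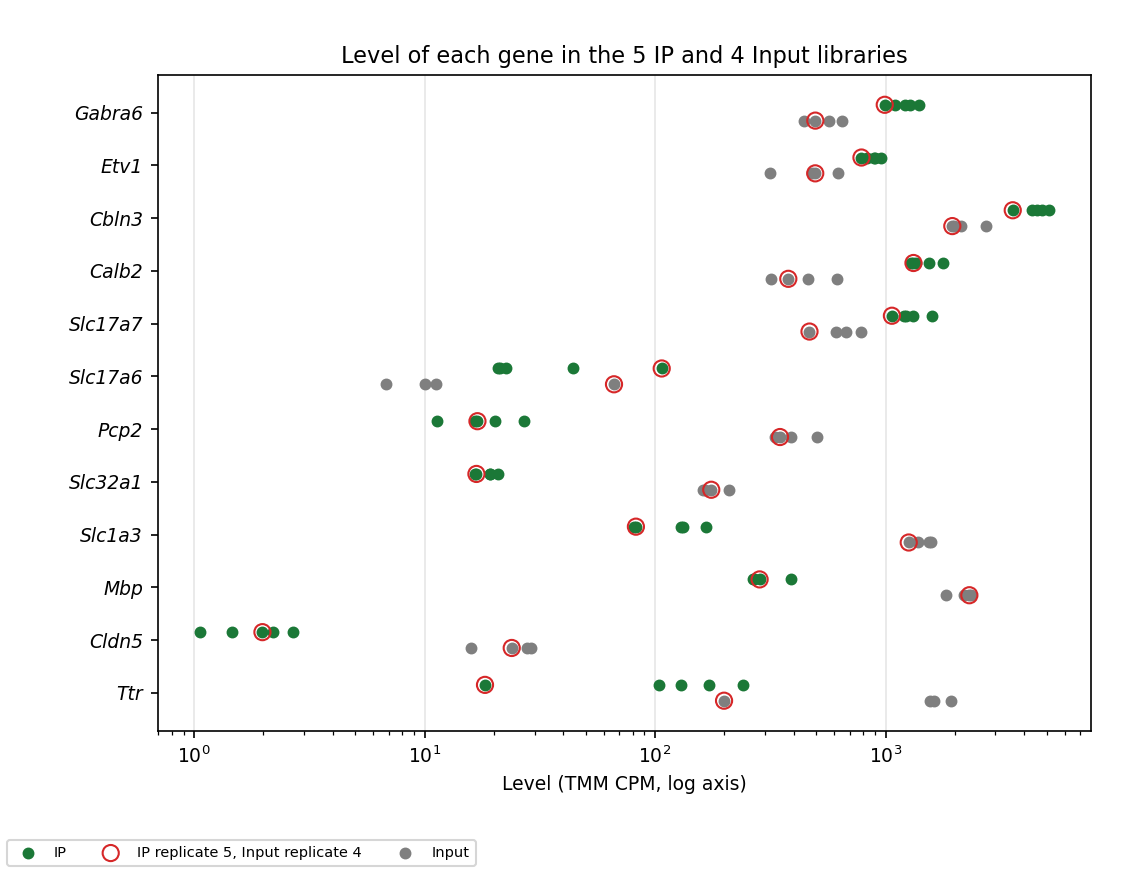
Level in TMM CPM on a log axis of 12 genes in each IP (green) and Input (grey) library, with red rings around IP replicate 5 and Input replicate 4. Granule cell genes such as *Gabra6* are higher in the IPs (993 to 1394 CPM, Inputs 443 to 648 CPM). Genes of other cells such as *Pcp2* are lower (11.3 to 26.9 CPM, Inputs 332 to 503 CPM). *Slc17a6* is highest in the ringed libraries, and its other IPs lie above its other Inputs.

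Products that granule cells send to their synapses were among the most abundant RNAs of the IPs. *Cbln3*, which forms secreted complexes with cerebellin 1, stood at 5112, 4755, 4564, 4328 and 3566 CPM in the IPs and at 2734, 1984, 2117 and 1949 CPM in the Inputs. All IPs exceeded all Inputs, replicate 5 by the least (ratio 1.02, SE 0.138, adjusted p = 6.81e-05). *Cbln1*, which parallel fibers need for their synapses with Purkinje cells, stood at 3225, 2287, 2364, 2131 and 1805 CPM in the IPs and at 1179, 1025, 1181 and 823 CPM in the Inputs. IP replicate 1 was the highest, and the groups did not overlap (ratio 1.17, SE 0.172, adjusted p = 1.33e-04).

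Glutamate loading splits between a pair of transporters. *Slc17a7* (vGluT1) stood at 1584, 1208, 1224, 1321 and 1066 CPM in the IPs and at 676, 612, 784 and 468 CPM in the Inputs, without overlap (ratio 1.01, SE 0.161, adjusted p = 2.39e-04). *Slc17a6* (vGluT2), whose locus drives Cre, stood at 21.2, 43.9, 20.9, 22.5 and 107 CPM in the IPs and at 11.2, 10.04, 6.82 and 66.4 CPM in the Inputs. IP replicate 5 and Input replicate 4 were the high ones, and the groups overlapped through Input replicate 4. Over all libraries its ratio of 0.87 (SE 0.695, adjusted p = 0.308) was not called. It was 0.25 without IP replicate 5, still not called, and 2.24 without Input replicate 4, 1.57 without both and 2.34 with the mouse code as a fixed block, each of which was called. With a random block it was 1.36 and not called. Both blocks use the codes as labelled, which put IP replicate 5 with Input replicate 3. They leave Input replicate 4 without a cerebellar IP of its code. Per length, the IPs held 237 CPM per kb of *Slc17a7* and 7.98 CPM per kb of *Slc17a6*. Of the 5 vesicular transporters tested, *Slc17a7* was called higher and *Slc32a1*, of inhibitory neurons, lower, shares under the 24.3% and 30.7% of all genes. Their median of −0.54 changed sign in several alternatives, for example to 1.58 without Input replicate 4.

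Genes of synaptic vesicle release followed, with 16 of 23 called higher and a median ratio of 0.68, a larger share than the 24.3% of all genes. *Snap25*, a SNARE protein, was the gene with the highest level per length among those called at least 2-fold higher, at 1644 CPM per kb in the IPs and 606 in the Inputs. Its levels were 11996, 11199, 12109, 10677 and 9836 CPM in the IPs and 4649, 4180.3, 3098 and 4540.2 CPM in the Inputs. The groups were far apart, Input replicate 3 being the lowest of all (ratio 1.44, SE 0.131, adjusted p = 2.90e-06). *Syt7* and *Doc2b*, both calcium sensors, were the ones called lower. *Doc2b* stood at 43.8, 51.0, 50.6, 51.4 and 52.2 CPM in the IPs and at 131, 119, 148 and 128 CPM in the Inputs, all IPs below all Inputs (ratio −1.40, SE 0.104, adjusted p = 5.36e-07). Outside this list, genes chosen for their level or ratio include a pair of neuronal proteins. *Vsnl1*, a neuronal calcium sensor, stood at 2236, 1942, 1723, 1809 and 1936 CPM in the IPs and at 746, 648, 771 and 728 CPM in the Inputs, with the Inputs close together (ratio 1.42, SE 0.112, adjusted p = 8.97e-07). *Chgb*, a granin of dense-core vesicles, stood at 1994, 2313, 1997, 1971 and 1485 CPM in the IPs and at 545, 508, 824 and 531 CPM in the Inputs. No library crossed between the groups (ratio 1.70, SE 0.174, adjusted p = 8.14e-06).

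*Calb2*, the calcium buffer calretinin of granule and unipolar brush cells, stood at 1359.8, 1294, 1783, 1547 and 1322 CPM in the IPs and at 317, 459, 614 and 379 CPM in the Inputs. The lowest IP was more than 2-fold above the highest Input. With a ratio of 1.72 (SE 0.188, adjusted p = 1.34e-05) it was highest of the 20 granule cell genes.

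Another of the granule cell genes is *Gabrd*, which encodes a subunit of GABA-A receptors outside synapses, on chromosome 4. It stood at 483, 332, 423, 430.4 and 361 CPM in the IPs and at 175, 182, 204 and 127 CPM in the Inputs. It was higher in all IPs than in any Input (ratio 1.24, SE 0.159, adjusted p = 4.67e-05). Per length the IPs held 480.4 CPM per kb of *Gabra6* and 141 CPM per kb of *Gabrd*, and the Inputs 217 and 59.8 CPM per kb.

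Glutamate receptors split within each class. Among 7 NMDA receptor subunits *Grin1*, *Grin2a* and *Grin2c* were called higher and *Grin2b*, *Grin2d* and *Grin3a* lower, beside 24.3% and 30.7% of all genes. The median was 0.05, and it fell below 0 with the mouse code as a fixed block (−0.05) and with Gad2 line Inputs added (−0.08). *Grin2c*, the subunit of mature granule cells, stood at 299.6, 227, 303, 314 and 267 CPM in the IPs and at 159.7, 208, 191 and 119 CPM in the Inputs, the IPs all above the Inputs (ratio 0.73, SE 0.165, adjusted p = 0.00261). *Grin2b*, the subunit of younger granule cells and of forebrain, stood at 2.83, 8.48, 3.70, 4.38 and 11.6 CPM in the IPs and at 18.7, 13.2, 13.2 and 25.3 CPM in the Inputs. IP replicate 5 and Input replicate 4 were the highest of their groups, which did not overlap (ratio −1.50, SE 0.377, adjusted p = 0.00505, and −1.60 without both). *Grin1*, the shared subunit, had a ratio of 0.68 and *Grin2a* of 0.65, with 51.4 and 5.51 CPM per kb in the IPs.

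For AMPA and kainate receptors, 6 of 9 subunits were called lower and *Grik2* alone higher, beside 30.7% and 24.3% of all genes, with a median of −1.85. *Gria1*, an AMPA subunit abundant in Bergmann glia, stood at 52.7, 107, 52.5, 70.1 and 75.6 CPM in the IPs and at 527, 469, 571 and 421 CPM in the Inputs. The highest IP was far below the lowest Input (ratio −2.79, SE 0.207, adjusted p = 5.36e-07). *Grik2*, a kainate subunit of granule cells, stood at 103, 136, 96.4, 111 and 88.7 CPM in the IPs and at 67.5, 55.8, 46.3 and 59.8 CPM in the Inputs, again apart (ratio 0.90, SE 0.149, adjusted p = 3.14e-04). Of 7 metabotropic receptors tested 5 were called lower, beside the same 30.7% of all genes, and *Grm4*, the autoreceptor of parallel fibers, was called higher. *Grm4* stood at 1063, 623, 904, 1172 and 797 CPM in the IPs and at 475, 487, 630.3 and 327 CPM in the Inputs, where IP replicate 2 fell just under Input replicate 3 (ratio 0.93, SE 0.211, adjusted p = 0.00279). Potassium channels were called in shares like those of all genes, with *Kcnd2*, *Kcnc1*, *Kcnk1*, *Kcnk3*, *Kcnk12* and *Kcnj9* higher and 5 lower of 20. Their median was 0.04, or −0.00 on CPM without TMM.

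Other excitatory cells with a vGluT2 past could carry the tag. Of 10 unipolar brush cell genes, *Eomes* and *Otx2* were called higher, some others were called lower, and the median was 0.28. *Eomes*, a T-box factor that defines these cells in the adult, stood at 29.9, 17.2, 33.6, 35.1 and 27.7 CPM in the IPs and at 11.5, 9.16, 13.7 and 9.24 CPM in the Inputs. The groups did not overlap, although IP replicate 2 came close (ratio 1.39, SE 0.208, adjusted p = 1.47e-04). *Otx2*, a homeobox factor of the same cells that midbrain also uses, stood at 40.9, 21.5, 42.0, 26.1 and 22.7 CPM in the IPs and at 16.2, 13.8, 11.7 and 10.4 CPM in the Inputs, likewise apart (ratio 1.23, SE 0.230, adjusted p = 7.53e-04). Per length *Eomes* was far below granule cell genes in the IPs, at 6.90 CPM per kb against 918 for *Cbln3*.

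Of 12 genes of glutamatergic cells of the cerebellar nuclei and brain stem 8 were not called. *Spp1*, *Nefm* and *Irx3* were among those called higher, beside 24.3% of all genes, and the median was 0.57. Without IP replicate 5 the median was −0.08, without Input replicate 4 it was 1.38, without both it was 0.96, and with the mouse code as a fixed block 1.30. *Spp1*, secreted osteopontin, stood at 51.5, 107, 57.6, 50.5 and 67.8 CPM in the IPs and at 20.2, 20.6, 18.2 and 33.9 CPM in the Inputs. IP replicate 2 and Input replicate 4 were highest, with no overlap (ratio 1.53, SE 0.253, adjusted p = 3.20e-04). For 14 of 15 tectum, thalamus and midbrain genes that could be tested, *Otx2*, *Barhl2* and *Calb2* were called higher and 7 lower, beside 24.3% and 30.7% of all genes. *Barhl2* is also a granule cell factor, as *Calb2* is a granule cell gene. The median of this list was −0.88, −3.18 without IP replicate 5, 1.18 without Input replicate 4 and −2.45 without both (−2.04 to −1.75 without IP replicate 1, 2, 3 or 4 or Input replicate 3). It was −2.01 with the mouse code as a random block, −1.83 with filterByExpr, −1.76 with no filter and 0.45 with Gad2 line Inputs added. Without both, *Otx2*, *Barhl2* and *Calb2* were still called higher and 7 of 10 tested genes lower. Of 8 forebrain genes tested 3 were called lower, *Neurod6*, *Ppp1r1b* and *Penk*, a share near the 30.7% of all genes. Their median of −0.12 changed sign in several alternatives, as far as 0.64 without Input replicate 4.

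Granule cell precursors are gone from the adult cerebellum. Of 10 of their genes, *Atoh1* was at 0 in each IP and Input, *Mki67* and *Top2a* were under the count filter, and 5 of the other 7 were called lower, beside 30.7% of all genes. The median was −2.26, and −1.42 with no filter on counts. *Gli1*, a hedgehog target that Bergmann glia keep in the adult, stood at 1.82, 1.88, 1.38, 1.40 and 1.08 CPM in the IPs and at 8.95, 15.1, 11.2 and 9.46 CPM in the Inputs, well apart (ratio −2.88, SE 0.228, adjusted p = 9.33e-07). The cyclins differed from each other. *Ccnd2* stood at 0.694, 1.98, 1.16, 1.04 and 1.45 CPM in the IPs and at 5.67, 6.14, 7.36 and 6.22 CPM in the Inputs (ratio −2.32, SE 0.278, adjusted p = 2.79e-05). *Ccnd1* stood at 26.7, 29.2, 34.0, 28.5 and 22.1 CPM in the IPs and at 26.6, 28.0, 29.7 and 26.7 CPM in the Inputs. For *Ccnd2* the groups were apart, while for *Ccnd1* they overlapped fully, and its ratio of 0.02 (SE 0.126, adjusted p = 0.919) took either sign across alternatives, scaling included.

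Purkinje cells receive the parallel fibers and release GABA, so the vGluT2 driver is not aimed at them. Of 20 Purkinje cell genes 18 were called lower, where 30.7% of all genes were, and 16 at least 2-fold, where 21% were, with a median ratio of −2.51. Summed, they took 1778, 2805, 1838, 2495 and 2651 CPM in the IPs and 9207, 9677, 10799.7 and 9820 CPM in the Inputs, so the IPs kept 23.4% of the Input mean. *Pvalb*, the calcium buffer parvalbumin that interneurons share, was most abundant per length, with 111 CPM per kb in the IPs and 906 in the Inputs. *Pcp2*, a regulator of G proteins that in the cerebellum marks Purkinje cells, stood at 16.6, 11.3, 26.9, 20.3 and 17.0 CPM in the IPs and at 332, 387, 503 and 349 CPM in the Inputs. Every IP was at least 10-fold under every Input (ratio −4.41, SE 0.236, adjusted p = 5.06e-08). *Ppp1r17*, a phosphatase inhibitor, stood at 11.5, 17.6, 20.8, 14.7 and 12.3 CPM in the IPs and at 204, 204, 219 and 215 CPM in the Inputs, nearly as far apart (ratio −3.78, SE 0.173, adjusted p = 2.38e-08). *Calb1*, the calcium buffer calbindin, had a ratio of −2.88.

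A pair of Purkinje cell genes was not called. *Stac2*, an adaptor of calcium channels, stood at 113, 88.5, 76.9, 66.4 and 115 CPM in the IPs and at 84.4, 78.4, 81.4 and 84.1 CPM in the Inputs, with full overlap (ratio 0.17, SE 0.159, adjusted p = 0.398). *Foxp2*, a forkhead factor, stood at 0.822, 1.58, 0.949, 0.814 and 19.0 CPM in the IPs and at 9.17, 9.07, 5.17 and 20.4 CPM in the Inputs. IP replicate 5 and Input replicate 4 were the high ones, and IP replicate 5 alone made the groups overlap. Its ratio of −1.23 (SE 0.886, adjusted p = 0.257) became −3.34 without IP replicate 5, −2.87 without both and −2.23 with the mouse code as a random block, each called. With a fixed block it was −1.49 and not called.

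Inhibitory interneurons and Golgi cells were lower too, with 14 of 16 genes called lower, beside 30.7% of all genes, a median of −2.66, and *Gjd2* and *Cdh22* not called. Summed, the 16 genes took 611, 919, 558, 724 and 782 CPM in the IPs and 2823, 2624, 2599 and 2761 CPM in the Inputs. *Slc32a1*, the vesicular GABA transporter, stood at 16.6, 20.7, 19.2, 19.3 and 16.8 CPM in the IPs and at 161, 165, 209.9 and 175 CPM in the Inputs. The spread was small and the groups far apart (ratio −3.26, SE 0.123, adjusted p = 8.29e-09). Of the enzymes that make GABA, *Gad1* stood at 108.3, 191, 106, 141 and 130.0 CPM in the IPs and at 456, 568, 509.6 and 610.4 CPM in the Inputs (ratio −1.99, SE 0.175, adjusted p = 2.29e-06), and *Gad2* had a ratio of −2.78. IP replicate 2 held the highest IP value of *Gad1* and the highest IP sum of this list and of the Purkinje cell list.

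All lists of glial, vascular and blood cells were called lower throughout, with no exception among 16 astrocyte and Bergmann glia, 15 oligodendrocyte, 8 oligodendrocyte precursor, 14 microglia, 14 endothelial and mural, 12 meningeal, choroid plexus and ependymal, and 5 red blood cell genes, beside 30.7% of all genes. Their medians were −3.17, −2.88, −2.64, −3.43, −3.34, −2.87 and −3.66 in that order. The last of these, the red blood cell median, ran from −4.67 without IP replicate 1 to −2.86 without Input replicate 3, and was −4.92 with the mouse code as a fixed block. Of each list's summed Input level the IPs held 15.8%, 14.0%, 15.5%, 18.9%, 10.3%, 8.75% and 8.04%, where the last was 3.66% without IP replicate 1 and 13.9% without Input replicate 3. IP replicate 2 had the highest sum of the 5 IPs in the astrocyte, oligodendrocyte, oligodendrocyte precursor and microglia lists and in that of meninges, choroid plexus and ependyma.

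*Slc1a3*, the glutamate transporter of Bergmann glia, stood at 81.2, 166, 130.1, 133 and 82.6 CPM in the IPs and at 1543, 1388, 1569.5 and 1261 CPM in the Inputs (ratio −3.60, SE 0.215, adjusted p = 1.09e-07). *Mbp*, a myelin protein, stood at 267, 391, 266, 269.7 and 284 CPM in the IPs and at 1825, 2201, 2355 and 2311 CPM in the Inputs (ratio −2.88, SE 0.145, adjusted p = 3.69e-08). For both genes the IPs kept a level far from 0 and far under the Inputs. *Cldn5*, a tight junction protein of vessels, stood at 1.46, 1.06, 2.69, 2.19 and 1.98 CPM in the IPs and at 15.9, 29.1, 27.9 and 23.9 CPM in the Inputs (ratio −3.69, SE 0.266, adjusted p = 4.47e-07). *Tyrobp*, a signaling adaptor of microglia, stood at 0.180, 0.326, 0.214, 0.337 and 0 CPM in the IPs and at 6.15, 4.96, 5.34 and 5.08 CPM in the Inputs (ratio −4.66, SE 0.528, adjusted p = 1.80e-05). These vascular and microglial RNAs were at a few CPM or less in all IPs. *Hbb-bs*, a β-globin gene with a near-identical neighbor that can share its reads, stood at 87.6, 5.93, 8.97, 24.6 and 7.32 CPM in the IPs and at 356, 118, 751 and 144 CPM in the Inputs. Blood RNA varied widely in both groups, with no overlap (ratio −3.67, SE 0.832, adjusted p = 0.00275, and −4.87 without IP replicate 1, −2.94 without Input replicate 3 and −5.05 with the mouse code as a fixed block). *Apoe*, a lipid carrier of astrocytes, had a ratio of −3.95 and *Ttr* of −3.32, or −4.23 with the fixed block.

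**Figure D3:**
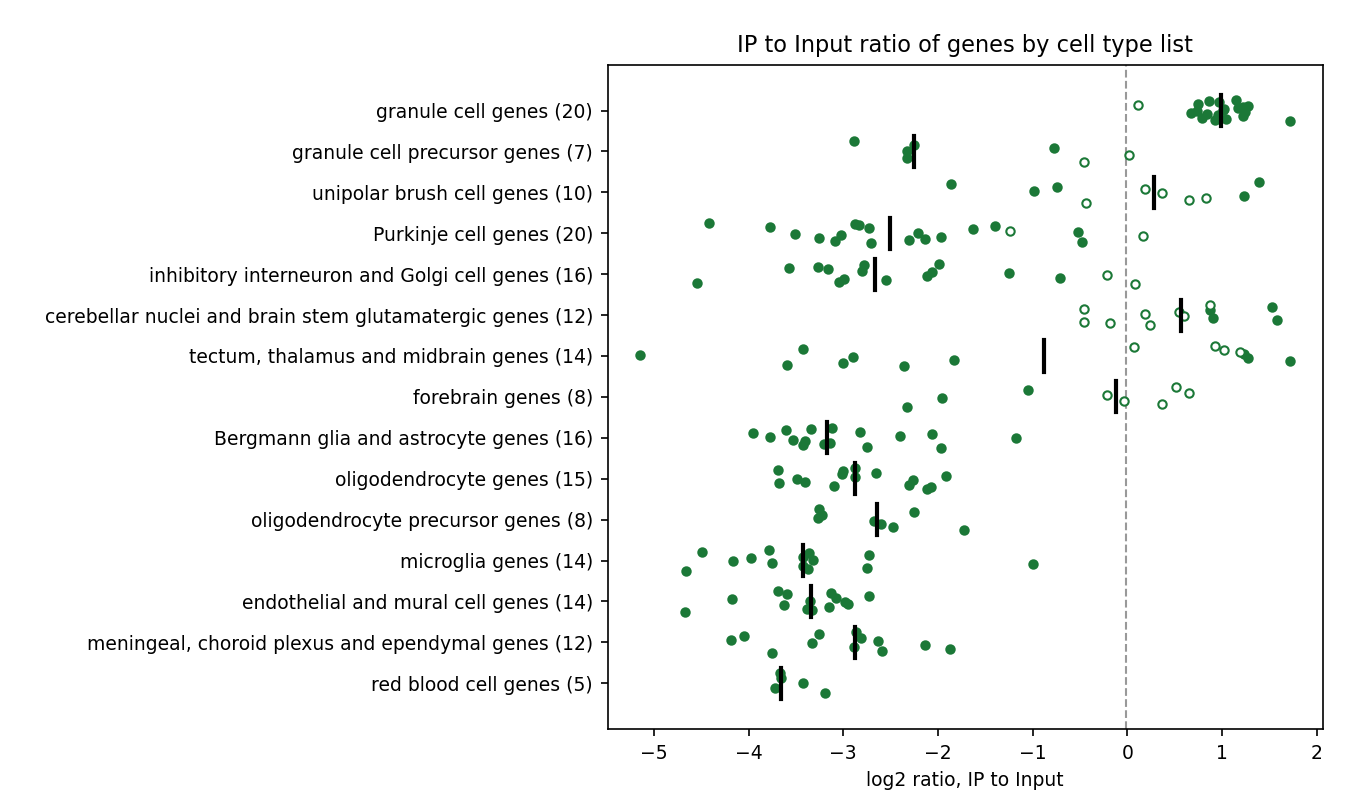
Log2 ratio of IP to Input for each tested gene of the cell type lists, with the number of genes in brackets, filled points for called genes, open points for the others, a black bar at the list median and a dashed line at the median of all genes tested (−0.02). The granule cell list has a median of 0.99, and the glial, vascular and blood lists lie between −3.66 and −2.64.

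High ratios among called genes without overlap were found for genes used by many cell types. *Ahdc1*, a gene with AT-hook domains, stood at 247, 219.5, 253, 309.7 and 236 CPM in the IPs and at 50.1, 57.8, 70.9 and 45.8 CPM in the Inputs (ratio 2.17, SE 0.156, adjusted p = 4.42e-07). *Cog7*, a subunit of a Golgi tethering complex, stood at 215, 187, 248, 251 and 229 CPM in the IPs and at 50.3, 56.7, 61.4 and 48.6 CPM in the Inputs (ratio 2.06, SE 0.128, adjusted p = 1.43e-07). *Rock2*, a kinase that acts on actin, stood at 488, 655, 285, 486 and 416 CPM in the IPs and at 141, 131, 124 and 133 CPM in the Inputs (ratio 1.82, SE 0.200, adjusted p = 1.42e-05). In each case the lowest IP was more than 2-fold above the highest Input, and only *Rock2* spread widely among the IPs. Also high were *Tlx3*, *Calb2*, *Chgb*, *Ntf3*, *Cdh15*, *Plk5*, *Tcap*, *Col17a1*, *Cabp2* and *Sh3bgr*, from 1.76 down to 1.55.

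The Gad2 line shows which of these ratios were shared with inhibitory neurons. *Cog7* ran from 312 to 498 CPM (median 425, n = 6) in the Gad2 IPs and from 51.5 to 59.8 CPM (median 59.5, n = 3) in their Inputs. The ratio was thus larger in the Gad2 line (tested difference, vGluT2 minus Gad2, −0.80, SE 0.207, adjusted p = 0.00483). For *Ahdc1*, from 317 to 506 CPM (median 373) and from 66.0 to 75.5 CPM (median 74.0), the difference of −0.24 (SE 0.207, adjusted p = 0.384) was not called. For *Rock2* it was 0.71 (SE 0.387, adjusted p = 0.164), and 0.92 and called without replicate 5 of the Gad2 IPs.

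Over all genes, the ratio differed between the 2 lines for 2409 of 14267 genes toward vGluT2 (16.9%) and for 2823 toward Gad2 (19.8%). All 20 granule cell genes were called toward vGluT2, with a median difference of 3.11 against −0.05 over all genes. Toward Gad2 were 19 of 20 Purkinje cell genes (median −4.07) and 15 of 16 interneuron and Golgi cell genes (median −4.12). All 14 microglia genes were called too, with a median of −2.58, so they were more depleted in the vGluT2 IPs. Also called toward Gad2 were 7 of 16 astrocyte and Bergmann glia genes (median −0.93) and 4 of 14 endothelial and mural genes. The same held for 3 of 15 oligodendrocyte and 2 of 8 oligodendrocyte precursor genes, beside 19.8% of all genes. Since the vGluT2 libraries enter both comparisons, these counts and those of IP against Input are not independent.

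*Gabra6* ran from 76.9 to 196 CPM (median 126, n = 6) in the Gad2 IPs and from 316 to 612 CPM (median 445, n = 3) in their Inputs. It was thus depleted there and enriched in the vGluT2 IPs (difference 2.95, SE 0.354, adjusted p = 1.96e-06). *Etv1* did the same, from 43.6 to 114 CPM (median 65.3) in the Gad2 IPs and 226 to 646 CPM (median 339) in the Inputs (difference 3.30, SE 0.432, adjusted p = 5.78e-06). *Calb2* ran from 45.9 to 126 CPM (median 97.3) and from 405 to 583 CPM (median 581), with a difference of 4.26 (SE 0.372, adjusted p = 3.37e-08). Near it were *Tlx3* (4.26), *Tmem163*, a zinc transporter of vesicles (4.17), and *Prrt2*, a presynaptic protein (4.07). At the other end *Pcp2* ran from 947 to 1806 CPM (median 1269) in the Gad2 IPs and from 331 to 591 CPM (median 576) in the Inputs, a difference of −5.84 (SE 0.394, adjusted p = 1.45e-09). *Gng13*, a G protein subunit, and *Ppp1r17* were at −5.85 and −5.72.

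Against the vGluT2 cerebrum, ratios differed for 2299 of 14719 genes toward the cerebellum (15.6%) and 3935 toward the cerebrum (26.7%). By mouse code the cerebral libraries come from the same animals as the cerebellar ones, which this test treats as independent. With the mouse code as a random block 2746 and 4499 genes were called, although Y-linked genes contradict 3 of these codes. Of the 20 granule cell genes 11 were called toward the cerebellum, with a median difference of 0.82 against −0.12 over all genes. *Pax6* ran from 0.855 to 2.28 CPM (median 1.501, n = 6) in the cerebral IPs and from 4.82 to 7.31 CPM (median 5.43, n = 3) in the cerebral Inputs. Enriched in the cerebellum and depleted in the cerebrum, it differed by 3.16 (SE 0.264, adjusted p = 1.65e-07). *Grin2c* ran from 8.73 to 12.0 CPM (median 9.77) and from 47.4 to 55.9 CPM (median 49.5), a difference of 3.15 (SE 0.220, adjusted p = 2.58e-08). *En2*, an engrailed factor of the cerebellum and midbrain, differed by 2.56. Among genes at 5 CPM or more the differences reached 5.70 for *Mrgprf*, an orphan receptor, and *Wnt7a*, a secreted Wnt of granule cells, was at 4.04.

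Toward the cerebrum, *Cd34*, a surface protein of vessels in the cerebellum, stood out. In cerebellar IPs it stood at 0.129, 0.598, 0.428, 0.393 and 0.251 CPM and in the Inputs at 9.54, 12.8, 14.4 and 11.8 CPM (ratio −5.07, SE 0.337, adjusted p = 2.24e-07). In the cerebral IPs it ran from 93.0 to 115 CPM (median 107.7) and in their Inputs from 56.8 to 65.5 CPM (median 62.2). It was thus depleted in the cerebellar IPs and enriched in the cerebral IPs, a difference of −5.80 (SE 0.318, adjusted p = 1.29e-09). *Kitl*, the ligand of KIT, differed by −5.17, or −5.85 without replicate 3 of the cerebral Inputs. Purkinje cell genes were called toward the cerebrum in 15 of 20 cases, beside 26.7% of all genes, and toward the cerebellum in 1.

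Mitochondrially encoded RNA was the most depleted class. Of all counts it took 0.0832%, 0.141%, 0.101%, 0.0893% and 0.138% in the IPs and 9.21%, 7.15%, 4.13% and 8.72% in the Inputs. All 13 genes were called lower, beside 30.7% of all genes, with a median ratio of −6.41. *mt-Co1*, a cytochrome oxidase subunit and the most abundant of them, stood at 359, 743, 344, 407 and 559 CPM in the IPs and at 31974, 21236, 15208 and 27744 CPM in the Inputs, with Input replicate 3 the lowest Input (ratio −5.64, SE 0.296, adjusted p = 4.72e-08). *mt-Nd3*, a complex I subunit, was at 0 in each IP and at 56.1, 52.9, 35.6 and 69.5 CPM in the Inputs, so it was at least 583-fold lower with 3 counts per library as the limit. Set to that bound it stays the lowest of the list, and the median is the same. Near-identical nuclear copies of mitochondrial genes are listed too and can share reads with them, so single values of this class are uncertain. The HD littermates also had all 13 lower.

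Ribosomal proteins were lower by less, with 53 of 77 called lower, beside 30.7% of all genes, and a median of −0.63. At least 2-fold lower were 12, a smaller share than the 21% of all genes. Leaving out IP replicate 5 left 44 called, and leaving out both libraries 43. *Rps12* had the lowest ratio named here, at 59.1, 41.0, 54.9, 35.3 and 43.5 CPM in the IPs and 203, 172, 246 and 190.1 CPM in the Inputs (ratio −2.12, SE 0.166, adjusted p = 8.62e-07). Processed pseudogenes of ribosomal proteins can share reads with their parents, so these values carry that uncertainty. *Rpl22*, the tagged gene, stood at 70.9, 56.8, 63.6, 48.5 and 56.2 CPM in the IPs and at 90.0, 80.8, 92.6 and 82.8 CPM in the Inputs, all IPs lower (ratio −0.55, SE 0.119, adjusted p = 0.00211). Its paralog *Rpl22l1* was not called.

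Immediate early genes, which neurons switch on after activity, were higher for 9 of 17 tested, beside 24.3% of all genes, with a median of 0.69. *Egr1*, a zinc finger factor, stood at 116, 139, 83.7, 76.5 and 78.5 CPM in the IPs and at 44.3, 33.6, 37.5 and 37.2 CPM in the Inputs, without overlap (ratio 1.37, SE 0.188, adjusted p = 7.95e-05). *Fos* stood at 22.3, 28.7, 6.24, 13.7 and 6.61 CPM in the IPs and at 7.63, 3.73, 7.63 and 3.21 CPM in the Inputs. IP replicates 3 and 5 fell under the highest Inputs, and the ratio of 1.48 (SE 0.465, adjusted p = 0.0173) lost its call without Input replicate 2 (1.33), with the mouse code as a fixed block (1.22) and with Gad2 line Inputs added (0.02).

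Among 1817 genes of other types with a mean count over 10, mostly noncoding RNAs and pseudogenes, 152 were called higher (8.37%) and 455 lower (25%). Of 10 nuclear long noncoding RNAs 5 were lower, *Malat1*, *Neat1*, *Meg3*, *Rian* and *Snhg14*. *Malat1*, a nuclear speckle RNA, stood at 5.83, 11.8, 17.7, 81.1 and 38.3 CPM in the IPs and at 1236, 218, 158 and 734 CPM in the Inputs. Levels varied over 7-fold within the Inputs and more within the IPs, but no IP reached an Input (ratio −4.17, SE 0.799, adjusted p = 9.34e-04, and −4.94 without IP replicate 4 and −3.50 without Input replicate 1). *Meg3*, an imprinted nuclear RNA of neurons, stood at 58.8, 76.8, 53.8, 195 and 124 CPM in the IPs and at 357, 526, 220.0 and 393 CPM in the Inputs, where IP replicate 4 came near Input replicate 3 (ratio −1.80, SE 0.372, adjusted p = 0.00153). *Neat1*, of paraspeckles, had a ratio of −1.84 and *Rian*, from the same imprinted cluster as *Meg3*, of −1.14. *Bc1*, a neuronal RNA of dendrites that is not among the genes chosen by rule and was picked after its values were seen, had a ratio of −7.10 (SE 0.781, adjusted p = 1.59e-05, and −6.31 without Input replicate 4). It stood at 1.34, 5.87, 8.26, 2.95 and 6.14 CPM in the IPs and at 820, 130, 259 and 1598 CPM in the Inputs.

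The comparison was repeated in HD littermates, which share no library with the controls. There 3856 of 14145 genes were called higher (27.3%) and 4723 lower (33.4%). On CPM without TMM the HD counts were 4652 higher and 4056 lower. Of the 3475 control genes called higher that could be tested in both, 1793 (51.6%) were called higher in the HD mice, where they are 46.5% of the list, and 82 were called lower. Of 4271 called lower, 3203 (75.0%) were called lower, 67.8% of the HD list, and 235 higher. The HD comparison had 1938 genes at least 2-fold higher where the controls had 303, and that difference was not tested. The granule cell list had 16 of 20 called higher in HD mice (median 0.76), the Purkinje cell list 16 of 20 lower (median −2.12), and the 5 glial and vascular lists from astrocytes to endothelium all members lower. *Gabra6* had a ratio of 1.65 (adjusted p = 2.74e-05) and *Etv1* of 1.42 (adjusted p = 6.24e-04) there. *Slc17a7*, at 1.01 in controls, was at −0.15 and not called in HD mice (adjusted p = 0.327), a difference between genotypes that was not tested either.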

How the data were processed

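Values are estimated counts per gene as deposited. According to the study's methods and the submitters' notes, the authors aligned paired reads with STAR to GRCm38.p6 and quantified them with Salmon in nf-core/rnaseq 3.0, with replicates kept apart. The release of the gene annotation is not given in the sources used here. Values that are not whole numbers make up 8.57%.

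The estimated counts were rounded. The 92 spike-in entries, from 0.0934% of the library in IP replicate 2 to 1.36% in IP replicate 5, were left out of library sizes and tests. Of 55401 mouse genes, 55141 matched GENCODE M21 by Ensembl identifier, which supplied symbol, type, length and coordinates. Protein-coding genes with a mean of more than 10 counts over the libraries compared were tested with edgeR's quasi-likelihood test (glmQLFit) after TMM scaling, with Benjamini-Hochberg adjustment over all genes of a comparison. Calls are at an adjusted p of 0.05 or less, and a second rule adds a 2-fold change. Differences between ratios in the Gad2 line or the cerebrum and those of the vGluT2 cerebellum are interaction terms of a model over both sets of libraries. Genes of other types were tested in a model with all genes. No replicates of a group held counts within sampling noise of each other (lowest chi-square per degree of freedom 39.7).

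Genes were named if they belonged to written gene lists, were among the 15 highest or lowest ratios (called, no overlap, 5 CPM or more), the 10 highest IP levels per length among genes at least 2-fold higher, the 10 largest gaps of IP replicate 5 to the next IP (0.1 CPM added), or the 10 largest called differences of each sign between groups. Some results of genes chosen this way are not reported here. The members and lists were chosen with earlier results of these data known. Alternatives were DESeq2, its size factors, CPM without TMM, no filter, filterByExpr, genes of all types, the mouse code as a fixed block or as a random block (limma voom), Gad2 line Inputs added, and each library left out.

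By the mouse codes in the labels, IP replicates 2, 4 and 5 come from the animals of Input replicates 1, 2 and 3. Across 14295 genes, which are not independent replicates, deviations from the group means correlated at 0.277, 0.107 and −0.237 in these pairs. The highest correlations of Input replicates 2, 3 and 4 were those with IP replicates 3 (0.291), 4 (0.303) and 5 (0.559), libraries of other mouse codes. The replicates were left as labelled. Work was done in R 4.3.3 (edgeR 4.0.16, limma 3.58.1, DESeq2 1.42.0) and Python 3.11.15 (numpy 2.4.6, pandas 2.3.3, matplotlib 3.10.9).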

Additional observations from a re-analysis of the deposited data

Results flagged for a closer look

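Of 214 sets of levels within a group of IP or Input libraries, 24 had a library far from the others. Chance alone gives about 1 in 20 for independent sets. These sets reuse the same libraries, and some are sums over genes that also enter singly, so the count was not tested against that share. It is also no yardstick for genes such as *Shox2*, *Tcf7l2* and *Nrgn*, which were chosen for the gap of IP replicate 5 and enter the count with it. Values here are the gap to the next library as a share of the group's range. IP replicate 5 was far above the other IPs in *Shox2* (0.965), *Tcf7l2* (0.994), *Nrgn* (0.993), *Foxp2* (0.958) and *Slc17a6* (0.733). Input replicate 4 was far above the other Inputs in *Shox2* (0.993), *Tcf7l2* (0.955), *Nrgn* (0.974), *Slc17a6* (0.927) and *Spp1* (0.851). Input replicate 3 was high in *Chgb* (0.880), *Apoe* (0.933) and the summed forebrain genes (0.857), and low in *Rian* (0.890). IP replicate 1 was high in *Uncx* (0.735), *Hbb-bs* (0.771), *Tmem163* (0.737) and the summed red blood cell genes (0.749), and low in *Doc2b* (0.806). IP replicate 2 was high in *Mbp* (0.857) and the summed hindbrain Hox genes (0.920001). Input replicate 1 was high in the summed AMPA and kainate receptor subunits (0.842). The summed Y-linked genes were above 0 in 1 library of each group, IP replicate 3 and Input replicate 2, which gives a value of 1 in both.

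Ratios that differed between groups by a test of the difference were those of 2409 genes toward vGluT2 and 2823 toward Gad2, and of 2299 genes toward the cerebellum and 3935 toward the cerebrum. Against the Gad2 line the differences were 2.95 for *Gabra6*, 3.30 for *Etv1*, 4.26 for *Calb2*, 4.26 for *Tlx3*, 4.07 for *Prrt2* and 4.17 for *Tmem163*. They were −5.84 for *Pcp2*, −5.72 for *Ppp1r17*, −5.85 for *Gng13* and −0.80 for *Cog7*. Against the cerebrum they were 3.16 for *Pax6*, 3.15 for *Grin2c*, 2.56 for *En2*, 5.70 for *Mrgprf*, 4.04 for *Wnt7a*, −5.80 for *Cd34* and −5.17 for *Kitl*.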

How the results depend on the processing

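Genes called in IP against Input numbered 7865 and between 6522 and 8674 over the alternatives, and 6932 to 8027 with each library left out. For genes named in the text, 1582 values under alternatives kept their direction and side of the threshold, and 17 changed direction. Of the values that kept their direction, 9 gained a call and 3 lost one. The 17 were not split by call. They include *Tcf7l2* and *Nrgn* without IP replicate 5, which were called there and not in the main fit. Leaving out both IP replicate 5 and Input replicate 4 was added after the data were seen, as were each left-out library other than IP replicate 5 and the random block in the comparisons with other groups. For genes of other types than protein-coding, each left-out library was added then too, IP replicate 5 included. At least 2-fold higher were 303 genes, 471 with no filter and 479 with genes of all types, where more genes were tested.

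With the mouse code as labelled as a replicate block, although Y-linked genes contradict a pair, 6522 genes were called with a fixed block and 8310 with a random block. With the fixed block *Slc17a6*, *Fos* and *Shox2* changed their call (2.34, 1.22 and 5.95), and with the random block *Foxp2* did (−2.23). No other gene named with its ratio changed its call, among those that kept their direction and for which the blocks were run. Neither block was run for the noncoding RNAs or the HD littermates. The fixed block was not run for the comparisons with the Gad2 line and the cerebrum. The fixed block turned the medians of forebrain genes (0.40), NMDA subunits (−0.0493) and vesicular transporters (2.19) and the ratios of *Tcf7l2* (−0.53) and *Ccnd1* (−0.0888). The random block turned vesicular transporters (0.80), *Tcf7l2* (−2.16), *Nrgn* (−1.13) and *Ccnd1* (−0.00913).

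With Gad2 line Inputs added, the medians of tectum, thalamus and midbrain genes (0.45), forebrain genes (0.0836), NMDA subunits (−0.0809) and vesicular transporters (0.35) changed sign, as did *Ccnd1* (−0.0110). CPM without TMM turned potassium channels (−0.00148) and *Ccnd1* (−0.0313), no filter turned forebrain genes (0.0391), and filterByExpr turned vesicular transporters (0.0287). Without both libraries, forebrain genes (0.00291), vesicular transporters (1.28), *Tcf7l2* (−3.01) and *Nrgn* (−1.75) changed sign. Under filterByExpr the Y-linked genes, and without both libraries *Shox2*, could not be tested.

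With 1 library left out, signs changed for the medians of nuclei and brain stem genes (−0.0821 to 1.38), tectum, thalamus and midbrain genes (−3.18 to 1.18), forebrain genes (−1.02 to 0.64; 0.00339 without IP replicate 1 and 0.0703 without IP replicate 4), vesicular transporters (−0.96 to 1.58) and Y-linked genes (−10.31 to 9.90; 0.0586 without IP replicate 5). The same held for *Nfia* (−0.00257 to 0.26), *Shox2* (−3.28 to 6.83), *Tcf7l2* (−4.97 to 2.09; −0.17, −0.25 and −0.28 without Input replicates 1, 2 and 3), *Nrgn* (−4.04 to 3.06) and *Ccnd1* (−0.0583 to 0.14). Without replicate 5 of the Gad2 IPs, *Rock2* was called at 0.92. For all of these changes the cause was not tested.

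The limits are few libraries per group, an Input in which granule cells already weigh heavily, 2 libraries that stand apart, and labels that differ from Y-linked expression in 3 mouse codes. Levels are shares of a library, so depletion of some RNAs raises the others. IP and Input differ in handling as well as in cell type. Genes of a few counts cannot be told from 0 at this depth.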
